A study of Mus musculus with 12 samples.

Results

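Secretory cells of the small-intestinal crypt are set up and kept by a small group of transcription factors, and 7 of them are described here: Atoh1, Gfi1, Spdef, Sox9, Bhlha15 (which encodes MIST1), Creb3l1 and Creb3l4. They were chosen by name, for their known roles, but with earlier results of these data known. They are 7 of the 55414 genes in the count table. RNA was sequenced from cells sorted out of crypts of untreated C57BL/6J mice as Paneth or non-Paneth cells, with 3 libraries from each sort of each genotype. WT mice carry the glucocorticoid receptor gene Nr3c1, and GRKO mice (GRvillinKO) lack it in cells in which the villin promoter drives Cre, so that the deletion covers the intestinal epithelium as a whole and not Paneth cells alone. The mice were 8 to 12 weeks old. The Paneth gate took CD24+ cKIT+ cells of medium to high side scatter without CD31, CD45 or TER119, while neither labels nor methods describe how non-Paneth cells were gated. The genotype was read from the sample titles, since the genotype field calls all Paneth libraries WT and all non-Paneth libraries GRKO.

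The libraries held between 11126297 and 15910292 counts. Nr3c1 was at 33.0 to 41.1 CPM (a gene's counts scaled to a common library total) in WT Paneth cells and 4.73 to 12.1 CPM in GRKO Paneth cells, and at 135 to 160 CPM and 19.6 to 36.2 CPM in WT and GRKO non-Paneth cells, which follows the titles and not the genotype field. The 7 Paneth markers (Lyz1, Defa24, Defa30, Mmp7, Itln1, Ang4 and Mptx2) summed to 356829 to 445131 CPM in the 6 Paneth libraries and to 441 to 1690 CPM in the 6 non-Paneth libraries. The 7 tuft cell markers did not follow the sort in the same way. They summed to 171 to 1177 CPM in Paneth libraries, to 4.96 to 12.4 CPM in WT non-Paneth libraries and to 116 to 501 CPM in GRKO non-Paneth libraries. Markers of erythroid, endothelial and stromal cells stayed under 1 CPM in sum in every library. The 6 immune markers summed to 3.35 to 25.3 CPM, highest in GRKO Paneth replicate 2. Because Lyz1 and the Defa genes took 37.4 to 46.9% of all counts in Paneth libraries and at most 0.139% in the others, the CPM of any other gene is pressed down in Paneth cells. Levels below are CPM of all gene counts unless said otherwise, whereas fold changes come from counts scaled with TMM, which divides out such differences in composition. In bulk samples of this kind, fewer cells of a type and less RNA per cell cannot be told apart.

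In the crypt, Notch signaling keeps Atoh1 silent in cells that will absorb, and a cell that escapes Notch turns Atoh1 on and becomes secretory. Gfi1, Spdef and Sox9 then act on the choice between Paneth, goblet, tuft and enteroendocrine fates. Bhlha15 and the Creb3l factors act late, on the machinery that makes, stores and releases secreted protein.

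The promoters of Bhlha15 and Spdef are printed as those that the results and the motif search turn on. Each is the 250 bases before the start of the main transcript, written 5′ to 3′ in the direction of the gene, from the GRCm39 genome with GENCODE vM39 starts. Bhlha15 (chr5:144126836-144127085, plus strand) has the largest difference between the sorts, and Spdef (chr17:27947930-27948179, minus strand) holds the only TGACGTG among the 7 promoters, marked by capitals.
Bhlha15: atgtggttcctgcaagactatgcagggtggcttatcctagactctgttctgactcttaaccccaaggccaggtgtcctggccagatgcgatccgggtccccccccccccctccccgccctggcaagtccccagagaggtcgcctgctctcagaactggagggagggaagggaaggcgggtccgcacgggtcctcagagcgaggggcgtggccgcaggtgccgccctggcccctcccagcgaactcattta
Spdef: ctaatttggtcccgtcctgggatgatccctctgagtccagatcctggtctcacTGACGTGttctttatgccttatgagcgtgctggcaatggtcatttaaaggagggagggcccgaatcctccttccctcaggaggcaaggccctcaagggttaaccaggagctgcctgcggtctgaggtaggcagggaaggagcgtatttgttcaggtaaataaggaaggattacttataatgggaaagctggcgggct
CAGCTG is one of the E-box forms that bHLH factors such as ATOH1 and MIST1 can bind. Among the 7 promoters it was found in that of Creb3l1 alone, 28 to 23 bases before the start, and 11.9% of 21770 protein-coding promoters of this length hold it. Besides CAGCTG, only CATATG and CACGTG were searched among E-box forms. Other forms such as CAGATG and CAGGTG, both present unmarked in the Bhlha15 sequence above, were not searched. TGACGTG, the core of the element read by ER-anchored CREB3 factors, lay 197 to 191 bases before the Spdef start and is held by 1.52% of promoters. None of the 7 promoters held CATATG (2.94% of all promoters), CACGTG (6.26%), the SOX core ACAATG (9.41%) or TATAAA (11.9%), searched on both strands. None of these motifs contains another. The AGAACA and TGTTCT half-sites of the glucocorticoid receptor, with any 3 bases between them, were in none of the 21770 windows. A match is a description of these letters and not a binding site, and the windows hold no distant enhancers.

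All 7 factors were higher in Paneth than in non-Paneth cells, in WT and in GRKO mice. Bhlha15 stood far apart, at 78.2-fold in WT, while the other 6 lay between 3.38-fold (Creb3l1) and 6.95-fold (Creb3l4). The median log2 fold change of the 7 was 2.42 in WT and 2.60 in GRKO mice, against 0.01 and -0.08 over all 13057 genes tested. All 7 members passed the filter on low counts and were called higher at an adjusted p under 0.05 in both genotypes, where 24% of all genes tested were called higher and 26.7% lower in WT, and 18% higher and 21.2% lower in GRKO mice (edgeR quasi-likelihood test, Benjamini-Hochberg over all genes tested). Markers of other cell types differed between the sorts too. In WT mice 5 of 5 stem and 7 of 7 tuft markers were called higher in Paneth cells. In GRKO mice 2 of 5 and 7 of 7 were. Of 7 goblet markers 2 were higher and 3 lower in WT, and 3 and 2 in GRKO mice. Of 8 enteroendocrine markers 0 were higher, with 5 lower in WT and 7 in GRKO mice. The part of these cell types in the member values was not tested. Nothing in the labels says that libraries of a group came from separate mice, so that p-values measure the spread between these samples.

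**Figure D1:**
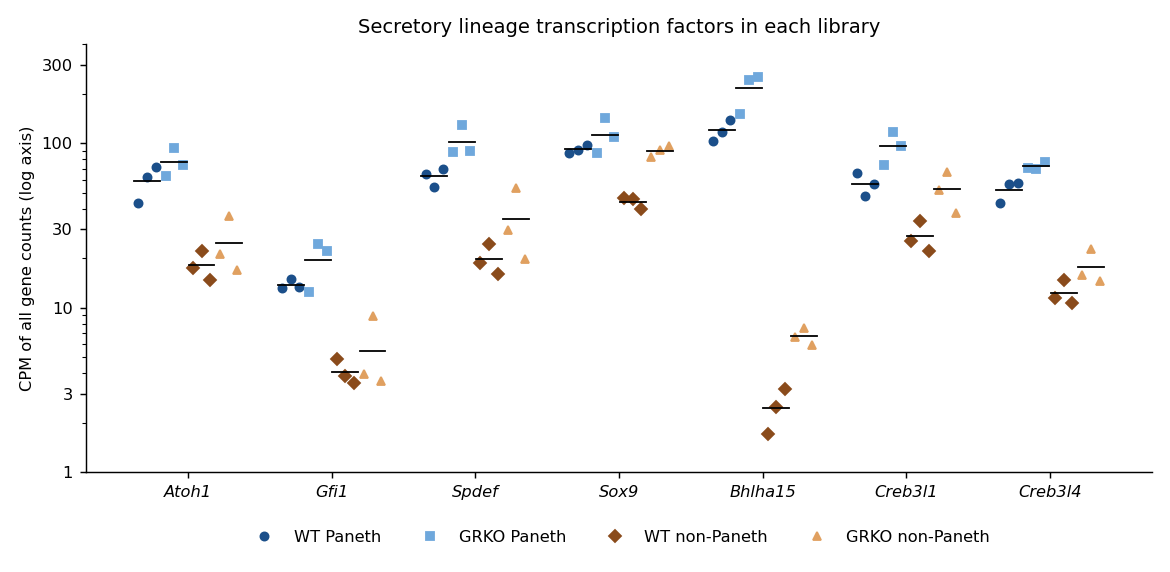
Level of each factor in each of the 12 libraries, as CPM of all gene counts on a log axis. Points are libraries (replicates 1, 2 and 3 from left to right), black lines are group means, and colors and shapes are the 4 groups. Paneth libraries lie above non-Paneth libraries of the same genotype for every gene except Sox9 in GRKO mice, and Bhlha15 falls to between 1.71 and 7.54 CPM in non-Paneth cells.

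Atoh1, the bHLH factor that starts the secretory program (ENSMUSG00000073043, chr6:64706109-64708229, plus strand, a single exon of 2121 bases), was at 43.1, 62.2 and 71.5 CPM in the 3 WT Paneth libraries and at 17.5, 22.1 and 14.7 CPM in the WT non-Paneth libraries. In GRKO mice it was at 63.0, 93.7 and 73.1 CPM in Paneth and 21.1, 36.0 and 17.0 CPM in non-Paneth cells. Every Paneth library lay above every non-Paneth library. The log2 fold change between the sorts was 2.42 (SE 0.30, adjusted p = 3.51e-05) in WT and 2.60 (SE 0.30, adjusted p = 3.56e-05) in GRKO mice.

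Gfi1, a zinc finger repressor that turns secretory progenitors away from the enteroendocrine fate (ENSMUSG00000029275, chr5:107864523-107873902, minus strand, 6 exons), had the lowest level per length of the 7 in Paneth cells and was at 13.1, 15.01 and 13.4 CPM in WT and 12.5, 24.3 and 22.02 CPM in GRKO libraries. Non-Paneth libraries were at 4.89, 3.83 and 3.51 CPM in WT and 3.94, 8.86 and 3.57 CPM in GRKO mice. The sorts did not overlap, although GRKO non-Paneth replicate 2 stood well above its group. The log2 fold change was 2.48 (SE 0.31, adjusted p = 1.54e-05) in WT and 2.80 (SE 0.30, adjusted p = 7.72e-06) in GRKO mice. A lncRNA on the other strand, A430072P03Rik, overlaps 10.3% of its exonic bases and had at most 3 counts in any library.

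Spdef, an ETS factor that goblet and Paneth cells need to mature (ENSMUSG00000024215, chr17:27933326-27947929, minus strand, 6 exons), was at 64.7, 53.9 and 69.7 CPM in WT Paneth cells and at 18.8, 24.3 and 15.9 CPM in WT non-Paneth cells. GRKO Paneth libraries were at 88.6, 128 and 89.2 CPM, and GRKO non-Paneth libraries at 29.8, 53.6 and 19.9 CPM. The highest non-Paneth library, again GRKO replicate 2, lay just under the lowest WT Paneth library and below all GRKO Paneth libraries. The log2 fold change was 2.37 (SE 0.31, adjusted p = 5.56e-05) in WT and 2.54 (SE 0.30, adjusted p = 5.35e-05) in GRKO mice.

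Sox9, an HMG-box factor that Wnt signaling turns on in the crypt base and without which Paneth cells do not form (ENSMUSG00000000567, chr11:112673009-112678586, plus strand, 3 exons), had the highest mean level per length of the 7 in non-Paneth cells. It was at 87.6, 91.0 and 97.4 CPM in WT Paneth cells against 46.2, 46.0 and 39.6 CPM in WT non-Paneth cells. In GRKO mice the sorts overlapped on this scale, at 86.7, 142 and 109 CPM in Paneth and 82.9, 91.3 and 95.9 CPM in non-Paneth cells. After TMM scaling they did not overlap, and the log2 fold change was 1.78 (SE 0.14, adjusted p = 8.72e-08) in WT and 1.28 (SE 0.14, adjusted p = 4.29e-06) in GRKO mice. The GRKO difference depends on that scaling, since with library totals alone it was 0.32 (adjusted p = 0.0752), a scale on which the median of all genes lay at -1.05. The antisense lncRNA BC006965, which overlaps 13% of the exonic bases of Sox9, had at most 12 counts.

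Bhlha15, whose product MIST1 scales up granule storage in secretory cells (ENSMUSG00000052271, chr5:144127086-144131259, plus strand, 2 exons), was at 103, 116 and 138 CPM in WT Paneth cells and at 1.71, 2.50 and 3.19 CPM in WT non-Paneth cells. GRKO Paneth libraries were at 149, 243 and 252 CPM and GRKO non-Paneth libraries at 6.66, 7.54 and 5.92 CPM. No other member came near such a gap, and the lowest Paneth library lay far above the highest non-Paneth library. The log2 fold change was 6.29 (SE 0.24, adjusted p = 1.66e-10) in WT and 5.95 (SE 0.23, adjusted p = 9.50e-11) in GRKO mice. In CPM, the non-Paneth mean of Bhlha15 was 2.07% of the Paneth mean in WT and 3.12% in GRKO mice. The 7 Paneth markers were at 0.107 to 0.742% and 0.137 to 1.14% by the same measure, while the other 6 members were at 23.6% (Creb3l4, WT) to 80.0% (Sox9, GRKO). How much of the Bhlha15 signal in non-Paneth libraries came with Paneth cell RNA was not tested.

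Creb3l1, an ER-membrane bZIP factor that is cut free when secretory load rises and that drives late goblet differentiation (ENSMUSG00000027230, chr2:91812673-91854917, minus strand, 12 exons), was at 66.1, 48.0 and 56.4 CPM in WT Paneth and 25.6, 33.6 and 22.1 CPM in WT non-Paneth cells. In GRKO mice it was at 74.0, 117 and 96.2 CPM in Paneth and 52.3, 67.2 and 37.5 CPM in non-Paneth cells. The sorts did not overlap within a genotype, although the upper GRKO non-Paneth libraries reached the WT Paneth range. The log2 fold change was 1.76 (SE 0.20, adjusted p = 3.36e-06) in WT and 1.83 (SE 0.19, adjusted p = 4.09e-06) in GRKO mice.

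Creb3l4, a related ER-anchored bZIP factor (ENSMUSG00000027938, chr3:90144103-90150845, minus strand, 10 exons), was at 43.5, 56.1 and 57.0 CPM in WT Paneth and 11.5, 14.8 and 10.7 CPM in WT non-Paneth cells. GRKO libraries were at 70.3, 70.0 and 76.2 CPM in Paneth and 15.8, 22.8 and 14.5 CPM in non-Paneth cells. The sorts did not overlap, and GRKO non-Paneth replicate 2 was again above its group. Creb3l4 had a log2 fold change of 2.80 (SE 0.21, adjusted p = 5.85e-08) in WT and 3.01 (SE 0.21, adjusted p = 6.08e-08) in GRKO mice. Jtb, on the other strand, overlaps 10% of the exonic bases of Creb3l4 and had 646 to 892 counts per library, and the strand that was counted is not stated.

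**Figure D2:**
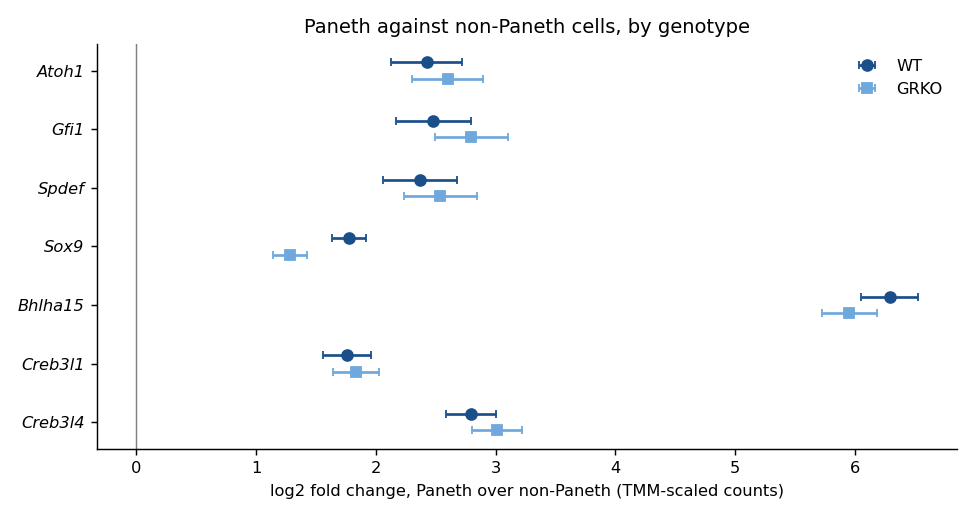
Log2 fold change of Paneth over non-Paneth cells for each factor, in WT (circles) and GRKO mice (squares), from TMM-scaled counts. Bars are standard errors, each from 3 against 3 libraries in a fit of all 12. All values lie above 0, with Bhlha15 near 6 and Sox9 the one gene whose WT and GRKO error bars are clearly apart.

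On a per-length scale (TPM, which divides counts by exonic length before scaling), the order of the factors within a group could be compared. In WT Paneth cells Bhlha15 came first at 35.1 ± 5.54 TPM (SD, n = 3), followed by Atoh1, Spdef, Sox9, Creb3l4 and Creb3l1 down to 21.7 ± 3.83 TPM, and neighbors in this order overlapped between libraries. Gfi1 came last at 4.47 ± 0.227 TPM, below all of them without overlap. In WT non-Paneth cells Sox9 came first at 36.7 ± 2.04 TPM and Bhlha15 last at 2.47 ± 0.824 TPM, under Gfi1 at 4.46 ± 0.654 TPM. The same genes led and closed the order in GRKO Paneth cells, with Bhlha15 at 67.7 ± 22.7 TPM and Gfi1 at 6.84 ± 2.65 TPM. In GRKO non-Paneth cells Sox9 led at 87.9 ± 4.83 TPM, and the last 2, Bhlha15 at 7.80 ± 0.949 TPM and Gfi1 at 6.97 ± 3.71 TPM, overlapped. The leads are by mean only. Sox9 overlapped Creb3l1, the next in order, in WT and GRKO non-Paneth cells, and Bhlha15 overlapped Spdef in GRKO Paneth cells.

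The partners and targets of the factors split between the sorts. In this and the next 2 paragraphs the share of all genes tested called higher was 24%, and lower 26.7%. Of 6 tested genes linked to MIST1, all 6 were higher in WT Paneth cells, led by Copz2, a coatomer subunit (log2 fold change 6.70), and Rab3d, a granule GTPase (2.97). The list has a 7th gene, Rab26, whose counts were too low to be tested (at most 0.65 CPM in any library). Of 7 goblet secretion genes linked to SPDEF, 4 were higher, among them Spink4 (4.97) and Ern2, the ER stress sensor of mucous cells (2.55), while Clca1 was lower (-3.69). Of 8 Wnt genes around SOX9, 5 were higher, with Ephb3, a receptor that keeps Paneth cells at the crypt base (2.46), and Lgr5 (1.62) on top, and Fzd5 was lower (-1.37).

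Among 8 genes that pair with, block or turn over ATOH1, the E proteins Tcf12 (log2 fold change 1.20) and Tcf4 (0.83) were higher and the inhibitors Id1 (-1.24) and Id3 (-1.75) were lower in WT Paneth cells. Of 11 tested Notch genes 5 were higher, led by Lfng, a glycosyltransferase that tunes Notch receptors (1.87), and Jag2 (1.31), and the ligand Jag1 was lower (-0.84). Of 6 corepressor partners of GFI1, 3 were higher, with Rcor2 at 1.40 and Hdac2 at 0.43, and Rcor1 was lower (-0.57). The 13 other lineage regulators gave 8 higher and 3 lower. The tuft cell factor Pou2f3 rose by 5.93 in log2 fold change, and the largest falls were in Klf4, a goblet and enterocyte factor (-1.56), and Neurod1, an enteroendocrine factor (-1.03). Gfi1b, the relative of Gfi1 that marks tuft cells, had 50 counts over the WT Paneth libraries and 0 over the WT non-Paneth libraries, which puts WT Paneth cells at least 19.6-fold higher if the empty group is set to 3 counts in all.

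In WT mice the relatives of Creb3l1 and Creb3l4 went the other way. Of 9 genes, the other CREB3 factors, their activating proteases and the COPII coat that carries cargo out of the ER, 7 were lower in WT Paneth cells and 2 were not called. Creb3l3, a liver and enterocyte factor, had a log2 fold change of -5.80, at 298 to 322 CPM in WT non-Paneth cells and 1.02 to 7.22 CPM in WT Paneth cells. Sec23a, a COPII subunit, was at -2.67, Creb3 at -0.79 and Creb3l2 at -0.73. Of the closest relatives of all members, 7 of 12 could be tested and 3 were higher and 3 lower. The 3 lower are Creb3, Creb3l2 and Creb3l3, counted already, and Gfi1b among the 3 higher is also counted with the other regulators. Atoh8 was higher (2.24), while Ptf1a had no count in any library. The 6 enterocyte markers, summed, were at 19894 to 23396 CPM in WT non-Paneth and 335 to 936 CPM in WT Paneth cells, so that enterocyte markers moved with these relatives, and their part in the result was not tested.

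In GRKO mice 18% of all genes tested were called higher and 21.2% lower between the sorts. Beside this, 6 of 6 tested MIST1 genes were higher and 0 lower, and 5 and 0 of 7 SPDEF genes. The Wnt genes gave 2 and 1 of 8, the ATOH1 partners 2 and 3 of 8, and the Notch genes 2 and 3 of 11. The GFI1 partners gave 0 and 2 of 6, the other regulators 6 and 3 of 13, and the closest relatives 3 and 2 of 7. Of 9 CREB3 relatives and coat genes 3 were higher and 2 lower. Sec24d (log2 fold change 1.60), Creb3l2 (1.18) and Sec31a (0.42) were higher there, Creb3l3 (-5.73) and Sec23a (-1.33) lower, and Creb3 (0.22) was not called.

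Deletion of Nr3c1 was followed next within each sort. In Paneth cells, the 7 factors had positive log2 fold changes in GRKO against WT, from 0.25 (Sox9) to 0.80 (Bhlha15), with a median of 0.45 against 0.03 over all genes. Bhlha15 was the 1 member called, and it was higher, where 1.7% of all genes tested were called higher and 1.52% lower. The libraries of the 2 genotypes did not overlap for Bhlha15, Creb3l1, Creb3l4 and Spdef, and overlapped for Atoh1, Gfi1 and Sox9. The share of all genes without such overlap was not counted, so this split is a description only. By edgeR, 26.7% of all genes tested had an unadjusted p under 0.05 in this comparison. Stem markers, with 0 of 5 called, summed to 5103 to 6665 CPM in WT and 3156 to 4476 CPM in GRKO Paneth libraries, without overlap. Tuft markers, with 0 of 7 called, summed to 171 to 436 CPM and 397 to 1177 CPM, which overlapped, with a median log2 fold change of 1.38 over the 7 genes. Their part in the member values was not tested.

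Bhlha15 was at 103 to 138 CPM in WT and 149 to 252 CPM in GRKO Paneth cells, a log2 fold change of 0.80 (SE 0.18, adjusted p = 0.0448). GRKO replicate 1 lay just above the highest WT library, and the other 2 GRKO libraries lay well above it. The call is at the edge of the threshold: it was lost in 7 of 14 alternative settings, with adjusted p up to 0.224 when GRKO Paneth replicate 2 was left out, while the log2 fold change stayed between 0.65 and 0.94. It was also lost without GRKO Paneth replicate 3 (adjusted p = 0.0836), WT Paneth replicate 1 (0.146) or WT Paneth replicate 2 (0.0535), and without both non-Paneth libraries numbered 2 (0.0977).

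Creb3l1 came next, with a log2 fold change of 0.73 (SE 0.19, adjusted p = 0.0501), just past the threshold on the other side. DESeq2 called it (0.73, adjusted p = 0.0124), and so did a fit with the replicate number as a block (0.72, adjusted p = 0.0211). The numbers pair no libraries across genotypes, so the call of the block fit adds no weight. Spdef had 0.68 (SE 0.29, adjusted p = 0.158) and Creb3l4 0.44 (SE 0.19, adjusted p = 0.157), and each was called in 1 of 14 alternatives, the one without a filter on low counts (adjusted p = 0.000241 and 0.0392). Gfi1 had 0.45 (SE 0.28, adjusted p = 0.316), Atoh1 0.33 (SE 0.28, adjusted p = 0.464) and Sox9 0.25 (SE 0.14, adjusted p = 0.251), none of them past the threshold. In all 14 alternatives these values stayed above 0.

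GRKO Paneth replicate 1 was the lowest of its group for 6 of 7 members, and it was also the library with the largest share of Lyz1 and Defa counts in that group, 45.7%. WT Paneth replicate 1 was the lowest of its group for 5 of 7, but had the smallest share of Lyz1 and Defa counts in its group, 42.2%. Without WT Paneth replicate 1 the log2 fold change was 0.10 for Atoh1, 0.27 for Creb3l4 and 0.65 for Bhlha15. Among the pathway genes, 2 were called, Sec24c (0.54) and Sec31a (0.55), both subunits of the COPII coat, each higher with an adjusted p of 0.0448. These calls were lost in the settings that called 0 genes in all by edgeR, namely without GRKO Paneth replicate 2 (where 2062 genes had an unadjusted p under 0.05), with only the groups compared (2341 genes) and without both non-Paneth libraries numbered 2 (2884 genes). DESeq2 called 1465 genes in this comparison.

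**Figure D3:**
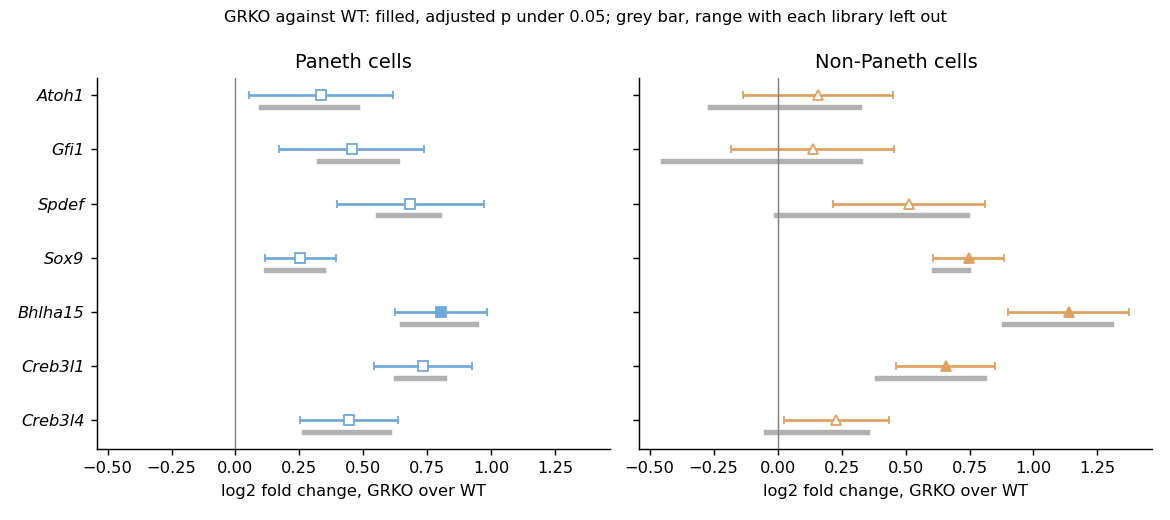
Log2 fold change of GRKO over WT for each factor in Paneth cells (left, squares) and non-Paneth cells (right, triangles). Thin bars are standard errors, filled points passed an adjusted p of 0.05, and grey bars span the values with each library of the comparison left out in turn. In Paneth cells all 7 grey bars lie above 0, and in non-Paneth cells those of Atoh1, Gfi1, Spdef and Creb3l4 reach below it.

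In non-Paneth cells 3 of the 7 factors were higher in GRKO than in WT mice, namely Sox9, Bhlha15 and Creb3l1. The background here is large, with 17.5% of all genes tested called higher and 19.8% lower. The median log2 fold change of the members was 0.51, against 0.02 over all genes.

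Sox9 rose from 39.6 to 46.2 CPM in WT to 82.9 to 95.9 CPM in GRKO non-Paneth libraries, with a log2 fold change of 0.75 (SE 0.14, adjusted p = 0.000856). The GRKO libraries were tight and lay far above the WT libraries. Bhlha15 rose from 1.71 to 3.19 CPM to 5.92 to 7.54 CPM, a log2 fold change of 1.14 (SE 0.24, adjusted p = 0.00179), again without overlap. Both calls held in all 14 alternatives, with a log2 fold change of 0.61 to 1.03 for Sox9 and 0.89 to 1.43 for Bhlha15.

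Creb3l1 rose from 22.1 to 33.6 CPM to 37.5 to 67.2 CPM, a log2 fold change of 0.66 (SE 0.19, adjusted p = 0.0154). The libraries did not overlap in CPM and overlapped after TMM scaling. The call was lost in 5 of 14 alternatives, among them without GRKO replicate 2 (0.39, adjusted p = 0.150), GRKO replicate 1 (adjusted p = 0.0637), WT replicate 1 (0.0880) or WT replicate 3 (0.109).

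The remaining 4 factors were not called. Spdef had 0.51 (SE 0.30, adjusted p = 0.202), Creb3l4 0.23 (SE 0.21, adjusted p = 0.407), Atoh1 0.16 (SE 0.29, adjusted p = 0.708) and Gfi1 0.14 (SE 0.32, adjusted p = 0.765). Their libraries overlapped between the genotypes, and their values moved with single libraries. GRKO non-Paneth replicate 2 was the highest of its group for 6 of 7 members and for 7 of 10 marker lists. Those lists include the low erythroid (0.0629 CPM in sum), endothelial and stromal (0.629) and immune (15.3) lists. The enterocyte, stem and proliferation lists were not highest there. Without GRKO non-Paneth replicate 2 the values of these 4 factors were -0.01, -0.05, -0.26 and -0.45 in the same order, none of them called. Without WT replicate 3, Atoh1 was at -0.04 and Gfi1 at -0.02. Without GRKO replicate 3 Spdef was called higher (0.74, adjusted p = 0.0294).

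The cell markers of the non-Paneth sort also differed between the genotypes, beside 17.5% of all genes tested called higher and 19.8% lower. Tuft markers, of which all 7 were called higher in GRKO, summed to 4.96 to 12.4 CPM in WT and 116 to 501 CPM in GRKO libraries. Enterocyte markers fell from 19894 to 23396 CPM to 5296 to 6537 CPM in sum, with 2 of 6 called lower. Proliferation markers, with 4 of 4 called higher, summed to 830 to 958 CPM in WT and 1778 to 1858 CPM in GRKO libraries. The Paneth markers, with 1 of 7 called (Ang4, higher), summed to 441 to 1346 CPM in WT and 875 to 1690 CPM in GRKO libraries. Stem markers, with 3 of 5 called higher, summed to 4140 to 5713 CPM in WT and 6516 to 8552 CPM in GRKO libraries, without overlap in CPM. Divided by the TMM factors, the stem sums of the genotypes overlapped. Goblet markers overlapped, at 8664 to 18069 CPM and 8885 to 12794 CPM, with 2 of 7 called lower. Enteroendocrine markers also overlapped, at 252 to 697 CPM and 572 to 872 CPM, with 2 of 8 called higher. The part of these shifts in the rise of Sox9, Bhlha15 and Creb3l1 was not tested.

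**Figure D4:**
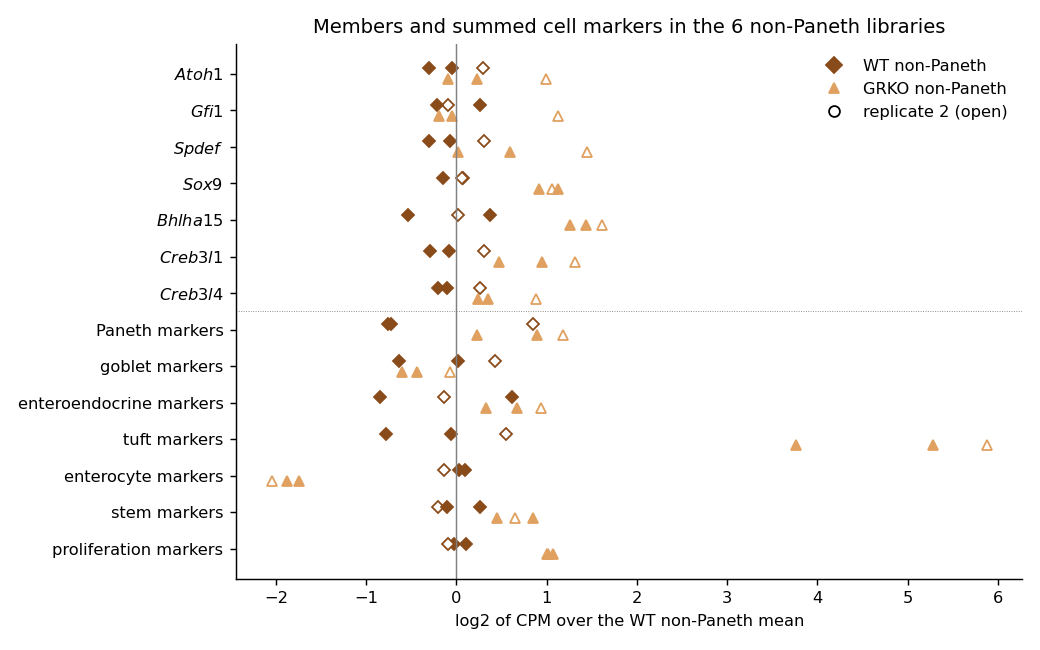
Level of each factor and summed level of each marker list in the 6 non-Paneth libraries, as log2 of CPM over the mean of the WT non-Paneth libraries. Diamonds are WT, triangles are GRKO, and open symbols are replicate 2. GRKO libraries of Sox9, Bhlha15 and Creb3l1 lie to the right of all WT libraries, tuft markers shift furthest to the right, and enterocyte markers to the left.

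MIST1 is also a factor of plasma cells, and their genes were looked up after the values were seen. Igha had 97 to 130 counts in WT non-Paneth libraries and 117, 2 and 0 counts in GRKO non-Paneth replicates 1, 2 and 3. Mzb1 had 0 counts in all 12 libraries. Their part in the Bhlha15 values was not tested.

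In this and the next paragraph the share of all genes tested called higher was 17.5%, and lower 19.8%. Around the factors, 9 of 13 other lineage regulators were higher in GRKO non-Paneth cells. Pou2f3 (log2 fold change 5.05), Neurog3, which starts the enteroendocrine fate (2.10), Nkx2-2 (1.56), Insm1 (1.53), Sox4 (0.92), Foxa2 (0.88), Foxa1 (0.68) and Foxa3 (0.65) were among them. Gfi1b had 95 counts over the GRKO and 0 over the WT libraries, at least 29.1-fold higher by the same rule, and Klf4 was lower (-1.49). Of the Notch genes 6 of 11 were higher, led by Jag2 (1.21) and Lfng (0.97), with Nrarp at 0.68, Notch2 at 0.55, Notch1 at 0.46 and Hes1, the repressor of Atoh1, at 0.48. Tcf12 (0.48) and Tcf3 (0.47) were higher, and Id1 (-1.15) and Id3 (-1.18) lower.

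Of the Wnt genes Ascl2 (log2 fold change 1.06), Ephb2 (0.85) and Lgr5 (0.62) were higher and Tcf7l2 (-0.61) lower. Among the SPDEF-linked genes Galnt12 (0.50) was higher, and Muc2 (-1.24) and Tff3 (-1.03), the main mucin of goblet cells and its trefoil partner, were lower. Rab3d (0.64) was the 1 of 6 MIST1-linked genes called. Of the GFI1 partners Rcor2 (1.18), Hdac2 (0.71) and Kdm1a (0.31) were higher. Of the CREB3 relatives and coat genes 6 of 9 were lower and the other 3 were not called, with Creb3l3 at -2.39, Creb3l2 at -1.35, Sec23a at -1.0, Sec24d at -0.97 and Creb3 at -0.89. Of the closest relatives 2 of 7 tested genes were higher and 3 lower, with Ehf, an ETS factor, at 0.80.

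Whether the deletion acted differently in the 2 sorts was tested as an interaction. No member was called by edgeR or by DESeq2, where 11.5% of all genes tested had a positive and 7.28% a negative interaction past the threshold. At an unadjusted p under 0.05 edgeR gave 1 of 7 members, Sox9, where 33.3% of all genes tested had such a p. The genotype difference of Sox9 was smaller in Paneth cells by 0.49 on the log2 scale (interaction -0.49, SE 0.20, unadjusted p = 0.0235, adjusted p = 0.0914). It was called in 3 of 19 alternatives, namely by library totals (-0.74, adjusted p = 0.0328), without GRKO Paneth replicate 2 (-0.63, adjusted p = 0.0402) and without WT Paneth replicate 1 (-0.60, adjusted p = 0.0361).

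Bhlha15 had an interaction of -0.33 (SE 0.30, adjusted p = 0.462), and the other 5 members lay between 0.08 (Creb3l1) and 0.32 (Gfi1), with standard errors of 0.27 to 0.43. A p above the threshold does not show that the deletion acted alike in the sorts. Of 9 CREB3 relatives, proteases and coat genes 6 had a positive interaction, of which 4 were COPII coat genes, led by Sec24d (1.86), and the other 2 were Creb3l2 (1.92) and Creb3 (1.01). Creb3l3 was not called (0.07, adjusted p = 0.981). Of the Wnt genes 4 were negative, with Ascl2 at -1.44 and Lgr5 at -0.77, and 1 positive, Tcf7l2 at 0.83. Of the Notch genes 4 were negative, with Lfng at -0.96 and Hes1 at -0.88. Of the other regulators 5 were negative and 1, Klf4 (1.61), positive, and the GFI1 partner Hdac2 was negative (-0.65).

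Ratios of counts within a library do not depend on scaling, and were taken after the values were seen. Creb3l1 counts over Creb3l4 counts were 1.52, 0.855 and 0.989 in WT Paneth and 1.05, 1.67 and 1.26 in GRKO Paneth libraries. They were 2.23, 2.27 and 2.06 in WT and 3.31, 2.94 and 2.58 in GRKO non-Paneth libraries. The ratio was higher in every non-Paneth than in every Paneth library, and in GRKO than in WT non-Paneth cells. Gfi1 counts over Atoh1 counts stayed between 0.173 and 0.304 in all 12 libraries, with the 4 groups overlapping. Sox9 over Atoh1 was 2.65, 2.08 and 2.69 in WT and 3.92, 2.54 and 5.64 in GRKO non-Paneth libraries, and overlapped between them. Bhlha15 over Atoh1 overlapped there too, at 0.0978 to 0.217 and 0.210 to 0.348. Spdef over Atoh1 did not, at 1.08, 1.10 and 1.08 in WT and 1.41, 1.49 and 1.17 in GRKO non-Paneth libraries.

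The genes most like each factor were found by Pearson's r of TMM-scaled log2 CPM over the 12 libraries, among 9645 genes. The r values describe libraries that share a sort and a genotype, and the gap between the sorts makes up most of the variation. Atoh1 was closest to Ttc39a (0.996), Anxa5 and Tspan1, Gfi1 to the ETS factor Ets1 (0.991), Rapgef3 and Chrnb4, and Spdef to the transporter gene Slc12a8 (0.993), Sgsm3 and Hid1. Sox9 was closest to Fam222a (0.990), Rab15 and the forkhead factor Foxa2. Bhlha15 was closest to Nucb2 (0.996), Vmac and Tent5c. Tent5c, a poly(A) polymerase gene, was at a mean of 182 CPM in WT Paneth and 3.08 CPM in WT non-Paneth cells, beside 119 and 2.47 CPM for Bhlha15 itself. Creb3l1 was closest to Txndc5 (0.991), Fam174b and Sgsm1, and Creb3l4 to Qsox1 (0.997), Anxa5 and Ern2. Txndc5 and Qsox1 encode enzymes of disulfide bond formation in secreted protein.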

How the data were processed

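Libraries were made with a stranded TruSeq kit and read from a single end. The authors used STAR 2.7.10a to map them to mm39 with an annotation called gencode v28, and deposited raw counts per gene from the same run. FastQC and Trimmomatic 0.39 are named in the submitters' notes. The counted strand is not stated, and reads in several genes or places are not counted. The labels and the methods name different RNA kits.

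Of 55414 genes, 54749 were named through GENCODE vM39. Counts were fitted with edgeR 4.0.16 in R 4.3.3 (filterByExpr, TMM, robust glmQLFit, glmQLFTest), all 12 libraries in 1 fit with 1 mean per group, at a threshold of 0.05 over 13057 genes. The fit was tested on simulated data. Alternatives were DESeq2 1.42.0, other scalings, no filter, only the groups compared, a replicate block, and each library left out. No 2 libraries of a group agreed within sampling noise (chi-square per degree of freedom 12.0 to 46.2).

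The members and lists were chosen with earlier results of these data known. Several genes are in more than a single list, so the list counts are not separate results. Among them, Lgr5, Ascl2 and Axin2 are Wnt and stem genes. Muc2, Tff3, Clca1, Spink4 and Agr2 are SPDEF-linked and goblet genes, and Pou2f3 and Gfi1b are regulators and tuft genes. The text names all members, Nr3c1, up to 2 called genes in each direction per list and comparison (between genotypes also called genes whose libraries do not overlap), and the 3 genes of highest correlation per member with a mean of at least 10 CPM in a group.

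Replicate numbers of the titles were taken to pair the WT sorts: deviations from the group means correlated at 0.349, 0.229 and 0.238, over the limit of 0.1. WT sorts of unlike number gave -0.209 to 0.00725. GRKO sorts of the same number gave 0.0129, 0.262 and 0.465, and are not taken as paired. Passing the limit does not establish pairing, since libraries of different genotypes reached 0.219. The main fit used no pairing.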

Additional observations from a re-analysis of the deposited data

How the results depend on the processing

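The 7 calls between the sorts in WT mice held in 14 of 14 alternatives, and so did 6 of 7 in GRKO mice, with the exception of Sox9 under library totals. Over all member values, 479 alternatives left direction and call unchanged, 13 lost a call, 13 gained a call and 20 changed sign. In Paneth cells, GRKO against WT gave 1 member and 420 genes in all. The counts were 2 and 1465 with DESeq2, 0 and 2 with library totals, 4 and 1780 without a filter on low counts, 0 and 0 with only the groups compared, and 0 and 0 without both non-Paneth libraries numbered 2, an alternative chosen after seeing the data. A fit with the replicate number as a block, in a design where the numbers pair no libraries across genotypes, gave 2 and 977. With each library left out they spanned 0 to 2 and 0 to 1618. Library totals, which shifted the median of all genes by 0.31 in non-Paneth cells, by -1.05 between the GRKO sorts and by -0.28 in the interaction, gave 10784 genes between the GRKO sorts (5117 in the main fit). They also gave 5 members for GRKO against WT in non-Paneth cells, adding Spdef (0.81, adjusted p = 0.0455) and Creb3l4 (0.52, adjusted p = 0.0337), and 1 member in the interaction. The shares of all genes called on this shifted scale are not given here, so these counts are no result about the members. Under library totals the interaction values of Atoh1 (-0.071), Spdef (-0.11), Creb3l1 (-0.20) and Creb3l4 (-0.052) turned negative. Without both non-Paneth libraries numbered 2, GRKO against WT in non-Paneth cells gave 2409 genes instead of 4869, the interaction 873 instead of 2446, and Atoh1 (-0.075) and Gfi1 (-0.48) changed sign in non-Paneth cells. With each library left out, the interaction gave 0 to 1 members and 1563 to 2607 genes, with Atoh1 from -0.059 to 0.56, Spdef from -0.10 to 0.64 and Creb3l1 from -0.12 to 0.30. The GRKO against WT values in non-Paneth cells then ran from -0.26 to 0.32 for Atoh1, -0.45 to 0.32 for Gfi1, -0.0060 to 0.74 for Spdef and -0.045 to 0.35 for Creb3l4. The block on replicate numbers within a genotype changed no call of a member between the sorts (7 and 7) or in the interaction (0), and the block on numbers across genotypes left 3 members called in non-Paneth cells. The cause of these changes was not tested. At 3 libraries a group and 1.71 to 3.19 CPM, Bhlha15 in WT non-Paneth cells rests on the fewest counts of any member.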
